A study of Mus musculus with 8 samples.

Results

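The cluster of miR-143 and miR-145 comprises the mature arms that are cut from the murine precursors of miR-143 and miR-145. Its members were chosen by name, as every arm of mmu-miR-143 and mmu-miR-145 on the array. This gave 4 of 1079 murine miRs, which are mmu-miR-143-3p, mmu-miR-143-5p, mmu-miR-145-5p and mmu-miR-145-3p. MiR-143-3p and miR-145-5p were detected on all 8 arrays, and their signals did not differ between the Non-union and the Union group beyond the spread between arrays. The partner arms miR-143-5p and miR-145-3p were detected on none.

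MiR-143 and miR-145 are transcribed together from one host RNA, and of each precursor one arm, miR-143-3p or miR-145-5p, is usually the abundant mature form. Both are known as miRs of smooth muscle cells, pericytes and other mesenchymal cells, where they promote the contractile state of smooth muscle. In the RefSeq annotation (GRCm38.p6), the genes Mir143 and Mir145a both lie on chromosome 18, within the long non-coding RNA gene Carmn, also named Mir143hg. The array design names an older assembly, so that no coordinates are given.

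Callus RNA came from CD-1 mice, male and female, with an age of 9 to 14 weeks, 7 days after a femoral osteotomy that was stabilized with an intramedullary pin and a clip. The 4 mice of the Non-union group (P13 to P16) had a gap of 1.8 mm and a stripped periosteum on both sides of it, and the 4 Union mice (P17 to P20) had a gap of 0.25 mm, for which the methods state no stripping. The groups therefore differed in gap and periosteum together, and the callus was taken before healing could be judged, so that a group name stands for the surgical model and not for an observed outcome. Each specimen was labelled with the dye Cy3 and hybridized to 1 array, so that n is 4 arrays per group throughout.

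Each miR was represented by 40 spots. The scanner software summarized them into a merged signal, in units of a linear scale after background correction, and set a miR that it did not detect to 0.1. It detected 310 miRs on all arrays. Between 324 and 391 miRs were detected per array, and the total merged signal ranged from 183589 to 279341 units in the Non-union group and from 227941 to 360063 units in the Union group. On the Union array P18 the negative control spots had a mean of 84.8 units after background subtraction, against 4.38 to 5.82 on the other arrays. The SD of their processed signals was 2492 on P18 and 4.64 to 29.6 on the others. What this comes from was not tested. All 8 arrays lay on 1 slide with 1 scan time. One row of the slide held the Non-union and the other the Union arrays, and row and group cannot be told apart. The callus is a mixed tissue, and in such samples fewer cells of a type and less RNA per cell cannot be told apart.

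The first main arm, mmu-miR-143-3p, had merged signals of 226.0, 360.9, 196.0 and 172.3 units on the Non-union arrays P13, P14, P15 and P16. On the Union arrays P17, P18, P19 and P20 the signals were 232.8, 208.2, 216.8 and 216.4 units. P14 was the brightest array for this miR and P16 the dimmest, and all Union signals lay between these. The error that the software gave was 7.24% to 7.35% of the signal, and all 40 spots were well above background on every array.

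After log2 transformation and quantile normalization, miR-143-3p lay at 7.76, 8.41, 7.79 and 7.83 on P13 to P16 and at 7.45, 7.57, 7.87 and 7.70 on P17 to P20. P14 stood above all other arrays, and P19 of the Union group lay above P13, P15 and P16, so that the groups overlapped. The Non-union mean was 7.95 ± 0.31 (SD, n = 4) and the Union mean 7.65 ± 0.18 (SD, n = 4). Their difference of 0.30 on the log2 scale (SE 0.21) is a fold change (FC) of 1.23, with a 95% interval of 0.881 to 1.72. It did not pass the test (limma, adjusted p = 0.387). The exact permutation test of this miR alone gave p = 0.143, and the smallest p that 4 arrays against 4 allow is 0.0286. Without P14 the difference was 0.15.

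The second main arm, mmu-miR-145-5p, had merged signals of 15.6, 22.2, 8.32 and 6.26 units on P13 to P16 and of 16.2, 14.6, 14.8 and 6.17 units on P17 to P20. P14 was again the brightest array, while P15, P16 and P20 were the dimmest. The signals were not far from the detection limit, as the lowest merged signal of a detected miR was 2.16 to 2.39 units per array. Between 6 and 33 of the 40 spots were well above background, and the software error was 11.9% to 25.9% of the signal.

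The normalized values of miR-145-5p were 3.86, 4.43, 3.17 and 3.50 on P13 to P16 and 3.52, 3.56, 3.82 and 1.96 on P17 to P20. The Union array P20 was the lowest by a wide margin, and the other Union arrays lay within the range of the Non-union group. The group means were 3.74 ± 0.54 (SD, n = 4) for Non-union and 3.21 ± 0.85 (SD, n = 4) for Union. The difference was 0.53 (SE 0.44), an FC of 1.44 with a 95% interval of 0.727 to 2.86. It did not pass the test (limma, adjusted p = 0.440; exact permutation test, p = 0.429). Without P20 the difference was 0.11. The interval of miR-143-3p ended below an FC of 2 in both directions, whereas that of miR-145-5p included an FC of 2 in the Non-union group.

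**Figure D1:**
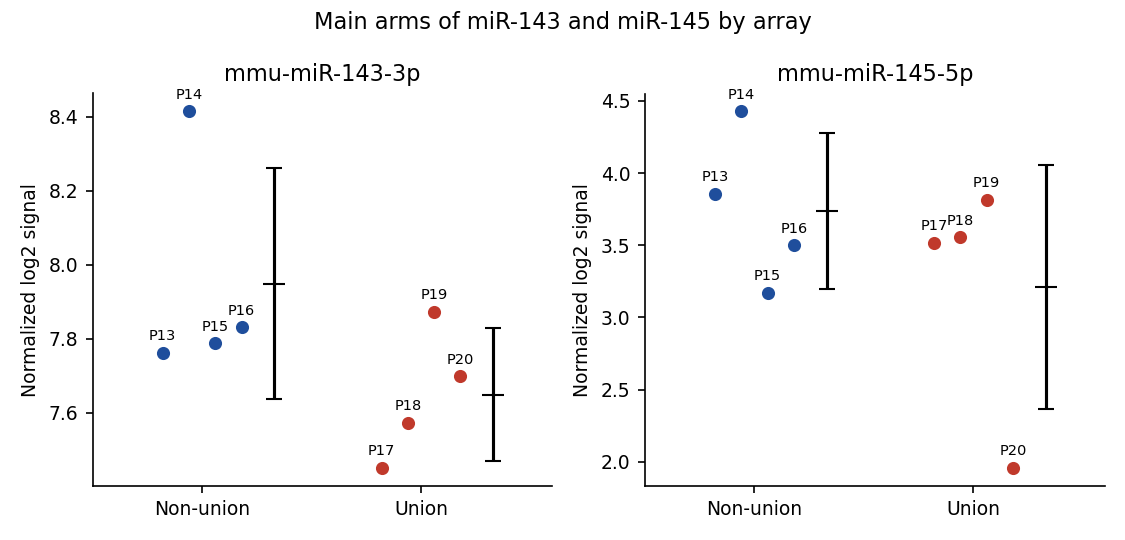
Normalized log2 signal of miR-143-3p (left) and miR-145-5p (right) on each array, in blue for the Non-union and in red for the Union group. Bars give the mean ± SD (n = 4), and each panel has its own axis, which does not start at 0. P14 stands above the other arrays for miR-143-3p at 8.41, and P20 stands below them for miR-145-5p at 1.96.

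Neither main arm was called by any of the criteria applied to all 310 tested miRs. An adjusted limma p under 0.05 was reached by 1 miR (0.323%) and by 0 members, and an unadjusted one by 43 miRs (13.9%) and by 0 members. An FC of at least 2, up or down, was shown by 26 miRs (8.39%) and by 0 members. Groups without overlap were found for 12 miRs (3.87%) and for 0 members. The unadjusted limma p was 0.194 for miR-143-3p and 0.258 for miR-145-5p. Over all tested miRs the median difference was 0.15, with quartiles of -0.26 and 0.47, so that miR-143-3p lay within the quartiles and miR-145-5p just above them. Compared with this median, miR-143-3p was 0.15 and miR-145-5p was 0.38 higher in the Non-union group on the log2 scale. Each of these values rested on a single array. Relative to the median of the same setting, miR-143-3p was at -0.03 without P14 and miR-145-5p at -0.12 without P20. With any other single array left out, both stayed above the median.

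Over all 8 arrays the SD of the normalized log2 signal was 0.285 for miR-143-3p, which ranked 243 of 310 from the most variable miR. For miR-145-5p it was 0.715, which ranked 62. The median over all tested miRs was 0.476. The SD of miR-145-5p rested on how its probes were merged, as described next, and with all probes of every miR summed it was 0.343 and ranked 204, while that of miR-143-3p stayed at 0.285.

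The partner arms gave no signal that the software called detected. The arm mmu-miR-143-5p is read by 2 probes of 20 spots each, and 2 of 320 spots were well above background over all arrays. By a less strict flag of the software, 83 of these 320 spots were positive and significant. One probe of this arm was below 0 on every array after background correction, and the other gave 0.759 to 1.80 units. The arm mmu-miR-145-3p is read by 4 probes of 10 spots each. Again 2 of its 320 spots were well above background, and 38 were positive and significant. Its summed probe signals lay between -1.15 and 0.33 units. These values lie below the lowest signal of any detected miR, so that no FC is given for either partner arm.

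The probes of the main arms showed how the merged signal of miR-145-5p was made. MiR-143-3p is read by 2 probes of 20 spots each, and its merged signal was the sum of both on all 8 arrays. MiR-145-5p is also read by 2 probes. Its merged signal was the sum of both on P13, P14, P17, P18 and P19, but equalled the second probe alone on P15, P16 and P20. These 3 arrays were also the dimmest for the first probe, which had 0 of 20 spots well above background there and, likewise, on P17. When both probes were added on every array, the signals were 15.6, 22.2, 11.7 and 8.95 units in the Non-union group and 16.2, 14.6, 14.8 and 8.67 units in the Union group. The arrays kept their order, but the distance of P15, P16 and P20 from the others was smaller. Of the 310 tested miRs, 50 (16.1%) left out a probe on some arrays only, 41 left one out on every array and 219 were the sum of all probes throughout, within a tolerance of 0.1%.

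Each probe taken by itself, without normalization, differed little between the groups. The probes of miR-143-3p gave log2 differences of 0.10 and 0.05 (exact permutation test, p = 0.857 and p = 0.914). The probes of miR-145-5p gave 0.04 and 0.07 (exact permutation test, p = 0.886 and p = 0.857). For each of these 4 probes the highest signal was that of P14.

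**Figure D2:**
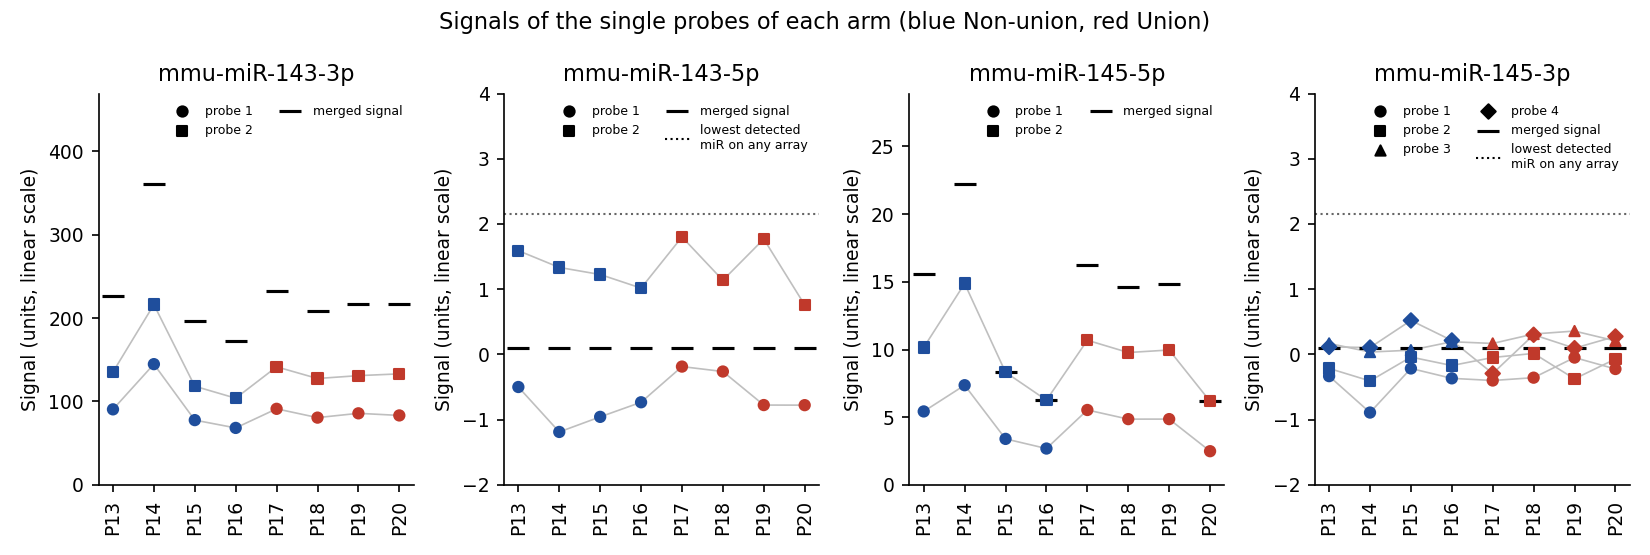
Signal of every probe of the 4 arms on each array (linear scale, blue Non-union, red Union), with the merged signal of the software as a black dash. For miR-145-5p the dash lies on a single probe on P15, P16 and P20 and at the sum of both probes on the other 5 arrays, and the probes of miR-143-5p and miR-145-3p lie below the dotted line of the lowest signal at which any miR was detected.

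With all probes of every miR summed before normalization, miR-145-5p lay at 3.90 ± 0.34 (SD, n = 4) on the Non-union and at 3.57 ± 0.29 (SD, n = 4) on the Union arrays. The difference became 0.33 (SE 0.24; limma, adjusted p = 0.401), close to the 0.30 of miR-143-3p, which did not move. P20 then lay at 3.15 instead of 1.96. Normalization also separated arrays with similar signals. P16 and P20 differed by 0.02 on the log2 scale in the merged signal of miR-145-5p before normalization and by 1.54 after it. These arrays stand in different groups, and without normalization the group difference of miR-145-5p was -0.07.

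Since both miRs come from one host RNA, the log2 distance between them on each array was compared as well. The value of miR-143-3p minus that of miR-145-5p was 3.91, 3.99, 4.62 and 4.33 on P13 to P16 and 3.94, 4.02, 4.06 and 5.74 on P17 to P20. P20 stood apart from the 7 other arrays. The mean distance in the Non-union group was 0.23 smaller than in the Union group, within the spread between arrays (exact permutation test, p = 0.771). Without P20 the sign was the opposite, with a distance 0.20 larger in the Non-union group. With all probes of every miR summed, the difference of Non-union minus Union in this distance was -0.03 (exact permutation test, p = 0.943).

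Across the 8 arrays the correlation of miR-143-3p with miR-145-5p did not pass the test (Pearson r = 0.51, exact permutation p = 0.187, Spearman rho = 0.40, exact permutation p = 0.327). Adjusted over the 17 relations computed here, p was 0.741 for r and 0.686 for rho (exact permutation tests, Benjamini-Hochberg). Without P14 and P17, the arrays farthest from the median of miR-143-3p, r was 0.28 (n = 6). Over 8 other ways to process the signals, r lay between 0.42 and 0.76. With quantiles normalized over detected miRs alone it was 0.42 (exact permutation p = 0.318) and -0.20 without the 2 farthest arrays. With the 75th percentile over detected miRs it was 0.45 (exact permutation p = 0.270) and 0.03 without them. With all probes summed, r was 0.74 (exact permutation p = 0.0583) and 0.39 without the 2 farthest arrays. Normexp gave 0.76 (exact permutation p = 0.0488) and 0.38 without the 2 farthest arrays. Averaged spots gave 0.69 (exact permutation p = 0.0499) and 0.52 without them. Leaving out flagged spots changed this r to 0.73 (exact permutation p = 0.0603). The value table of the authors gave 0.65 (exact permutation p = 0.0889). Without normalization r was 0.73 (exact permutation p = 0.0113) and 0.51 without the 2 farthest arrays. The p of these other ways were not adjusted. The unnormalized values also share the overall brightness of each array.

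**Figure D3:**
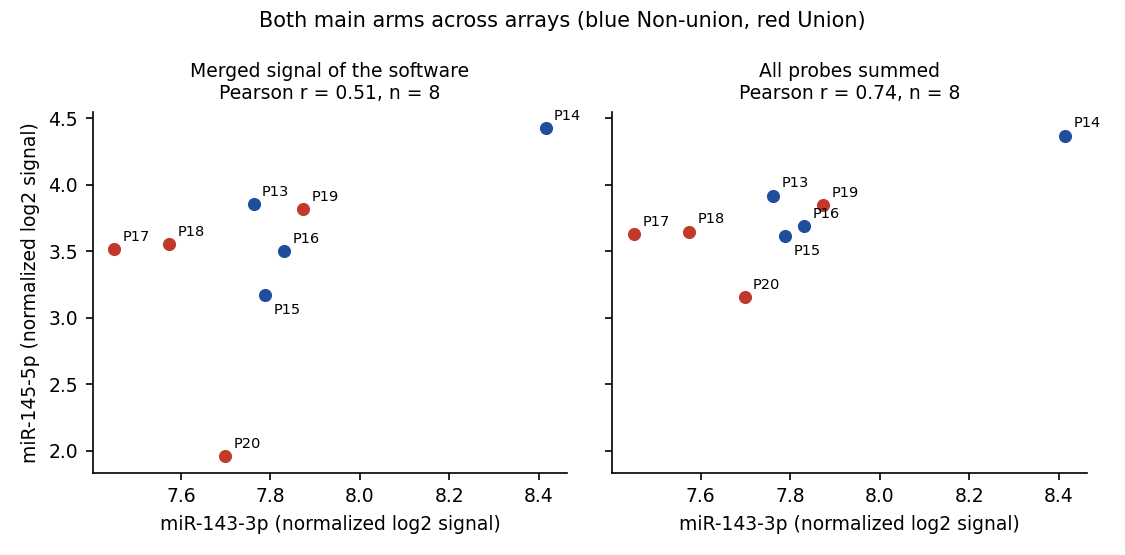
Normalized log2 signal of miR-145-5p against miR-143-3p on the 8 arrays (blue Non-union, red Union), from the merged signal (left, r = 0.51) and from the sum of all probes (right, r = 0.74). P20 moves from 1.96 to 3.15 on the vertical axis, and P14 is the highest array on both axes in both panels.

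Each column of the slide held 1 array of each group. Within the columns, the normalized difference of Non-union minus Union for miR-143-3p was 0.31, 0.84, -0.08 and 0.13 on the log2 scale. For miR-145-5p it was 0.34, 0.87, -0.65 and 1.54. After normalization both miRs were higher on the Non-union array in 3 of 4 columns and lower in the column of P15 and P19. Before normalization the differences were -0.04, 0.79, -0.15 and -0.33 for miR-143-3p, which was higher in 1 of 4 columns. They were -0.06, 0.60, -0.83 and 0.02 for miR-145-5p, which was higher in 2 of 4. With the column as a block, the adjusted limma p was 0.371 for miR-143-3p and 0.312 for miR-145-5p.

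Several miRs followed a main arm more closely over the 8 arrays than the main arms followed each other. Of the 308 other miRs tested, 27 had a higher Pearson r with miR-143-3p than miR-145-5p did, and 24 had a higher r with miR-145-5p than miR-143-3p did. The 5 most similar to miR-143-3p were miR-27a-3p (r = 0.83), miR-193b-3p (0.73), miR-532-3p (0.70), let-7d-5p (0.68) and miR-362-5p (0.68). The 5 most similar to miR-145-5p were miR-222-3p (r = 0.79), let-7d-5p (0.75), miR-193b-3p (0.73), miR-99a-5p (0.71) and miR-136-3p (0.71). These r are the highest of many over 8 arrays that share their normalization, and are given as a description. Let-7d-5p and miR-193b-3p stood in both lists.

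The mature sequences of the top miR of each list and of the 2 shared miRs are shown to tell whether miRs with like profiles share a seed, the part of a miR that pairs with its targets. They are those of RefSeq (GRCm38.p6), written 5′ to 3′, with the seed (bases 2 to 8) in capitals.
miR-27a-3p: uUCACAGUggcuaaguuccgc
miR-222-3p: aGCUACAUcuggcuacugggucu
miR-193b-3p: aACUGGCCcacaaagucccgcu
let-7d-5p: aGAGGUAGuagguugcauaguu
No seed was common to any of these, and the 8 miRs in both lists together had 8 different seeds.

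MiR-27a-3p, the closest to miR-143-3p, had a difference between the groups of 0.32 (SE 0.17; limma, adjusted p = 0.378). MiR-222-3p, the closest to miR-145-5p and known for its part in the growth of smooth muscle cells, had a difference of 0.18 (SE 0.24; limma, adjusted p = 0.632). The 2 miRs common to both lists differed by 0.08 (let-7d-5p) and 0.19 (miR-193b-3p). Among the 8, only miR-362-5p had an unadjusted limma p under 0.05, with a difference of 0.61 and an adjusted p of 0.313.

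Other miRs known from smooth muscle and stromal cells were set beside the main arms. The contractile muscle miRs miR-1a-3p and miR-133a-3p, which are also the main miRs of skeletal muscle, were lower in the Non-union group by 0.45 (SE 0.35) and 0.52 (SE 0.36), and neither passed the test (limma, adjusted p = 0.410 and 0.387). Of the 7 miRs of smooth muscle growth and phenotypic switch, 5 lay higher and 2 lower in the Non-union group, with a median difference of 0.18 against 0.15 over all tested miRs. The 1 with an unadjusted limma p under 0.05 was miR-31-5p, with a difference of 1.52 (SE 0.43; adjusted p = 0.288).

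Of the 10 stromal miRs, 8 lay higher and 2 lower in the Non-union group, with a median difference of 0.49. Over all tested miRs, 184 of 310 lay higher and 13.9% had an unadjusted limma p under 0.05. Such a p was found for 4 that were higher, which were miR-199a-5p (0.69), miR-199a-3p (1.01), miR-199b-5p (0.68) and miR-214-3p (0.75). These belong to miR loci that are well known to be expressed in mesenchymal cells. In all 4 the lowest Non-union array was P14 and the highest Union array P19. They ran alike over the arrays and do not count as separate calls. The only other stromal miR with such a p was miR-10b-5p, which was lower by 0.42 without overlap between the groups. No adjusted p of these 5 was under 0.05 (limma, 0.313 to 0.346). The differences of miR-143-3p (0.30) and miR-145-5p (0.53) lay on the same side as those of miR-199a, miR-199b and miR-214. They lay on the other side from those of miR-10b-5p (-0.42) and miR-22-3p (-0.23). No test of a difference between the main arms and the stromal miRs was made.

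Markers of other cells of the callus were compared in the same way. All 4 miRs of cartilage, both arms of miR-140 and of miR-455, lay higher in the Non-union group by 1.28 to 1.46, each with an unadjusted limma p under 0.05 and an adjusted p of 0.288 to 0.313. The mean of the cartilage list was 6.47 to 8.69 on the Non-union and 5.67 to 6.93 on the Union arrays. The list named myeloid here holds 4 miRs of myeloid cells and leukocytes. Of these 4, miR-223-5p was detected on no array and the other 3 lay lower in the Non-union group. Of these, miR-223-3p, the main miR of neutrophils and other myeloid cells, was lower by 1.13 without overlap (limma, unadjusted p = 0.0464, adjusted p = 0.346). The mean of the myeloid list was 9.53 to 10.12 on the Non-union and 10.01 to 11.997 on the Union arrays, and the highest was that of P20, the array with the lowest miR-145-5p. The other Union arrays lay at 10.01 to 10.16, near the upper end of the Non-union range. Both arms of the endothelial miR-126 lay lower in the Non-union group, by 0.26 and 0.36, and the list mean was 8.32 to 8.56 against 8.49 to 9.04. Of the 4 skeletal muscle miRs tested, miR-206-3p lay higher by 0.44 and the other 3 lay lower, and miR-208b-3p and miR-499-5p were detected on 2 and 5 arrays. The list mean was 12.33 to 13.61 on the Non-union and 13.10 to 13.54 on the Union arrays. The 3 red blood cell miRs on the array lay lower, with a median of -0.30 and a list mean of 7.04 to 8.61 against 7.21 to 9.19. What part these cell types have in the values of the main arms was not tested.

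**Figure D4:**
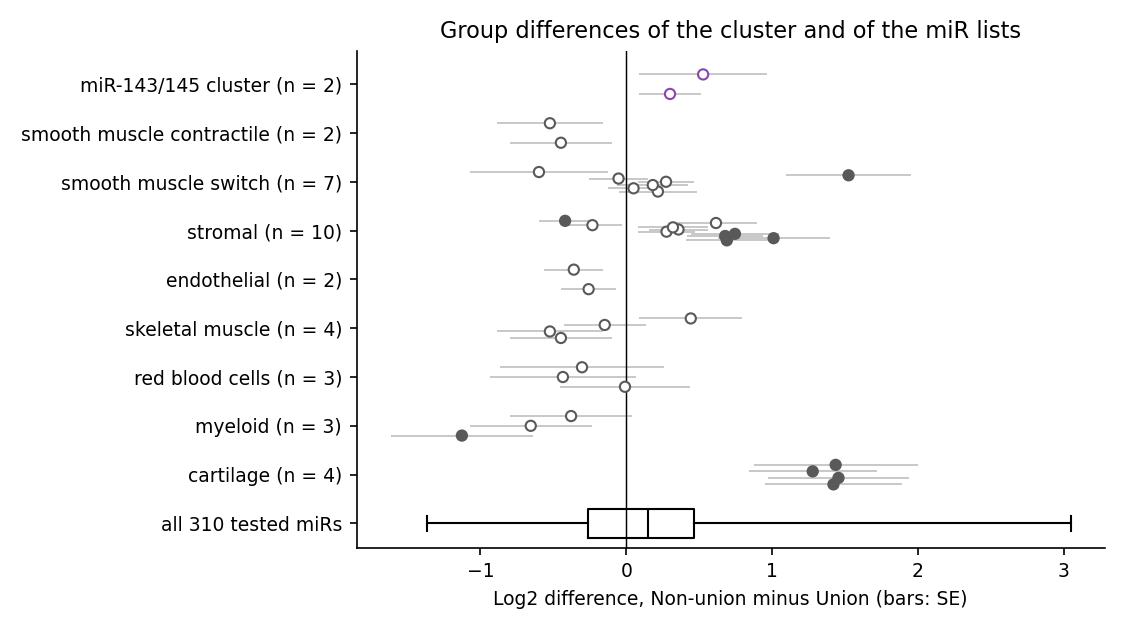
Log2 difference of Non-union minus Union for the main arms of the cluster (purple) and for the members of each list (grey), with their SE. Filled points have an unadjusted limma p under 0.05, and the box gives the median, quartiles and full range of all 310 tested miRs. Both main arms are open points to the right of 0, at 0.30 and 0.53.

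Of the 17 relations, 16 set a main arm against the mean level of a list, and none had an adjusted p below 0.526 (exact permutation tests, Benjamini-Hochberg). The strongest was that of miR-145-5p with the myeloid list (r = -0.87, exact permutation p = 0.0310, rho = -0.43, exact permutation p = 0.299). It rested on the farthest arrays, as r was 0.81 without P14 and P20. MiR-143-3p with the stromal list had r = 0.36 (exact permutation p = 0.425) and rho = 0.62 (exact permutation p = 0.115), and r was 0.89 without P14 and P17. The cartilage list gave the same rho of 0.62 (exact permutation p = 0.115) and r = 0.27 (exact permutation p = 0.527), with 0.75 without P14 and P17. The switch list gave r = 0.41 (exact permutation p = 0.304) and 0.76 without them. MiR-145-5p had r = 0.28 with the stromal list (exact permutation p = 0.545), and -0.06 without P14 and P20. With the endothelial list its r was -0.70 (exact permutation p = 0.0753), but 0.64 without P14 and P20. With the skeletal muscle list its rho was 0.69 (exact permutation p = 0.0694) and its r 0.33 (exact permutation p = 0.305). The contractile list gave r = -0.02 for miR-143-3p and 0.25 for miR-145-5p.

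The difference of miR-143-3p was above 0 in all of the 23 alternative settings fitted with limma, from 0.07 without normalization to 0.39 with the processed spot signals averaged, and its adjusted limma p was 0.225 to 0.877. The other filters and the slide column as a block used the same normalized values, so that the differences of both main arms could not move there. The difference of miR-145-5p was above 0 in 21 of these 23 settings, and in the value table of the authors it was 0.23. The value was -0.03 when the quantiles were normalized over detected miRs alone and -0.07 without normalization, and its adjusted limma p was 0.251 to 0.960. Relative to the median of all tested miRs in the same setting, these values were -0.06 and 0.04, and those of miR-143-3p were 0.26 and 0.17. In the setting with averaged spots, the difference of miR-145-5p was 0.70 with an unadjusted limma p of 0.0216. There a single spot of miR-145-5p on P16 read 558.5 units, while the next highest read 21.8. Without the spots that the software flagged, the difference was 0.33 (limma, unadjusted p = 0.214).

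**Figure D5:**
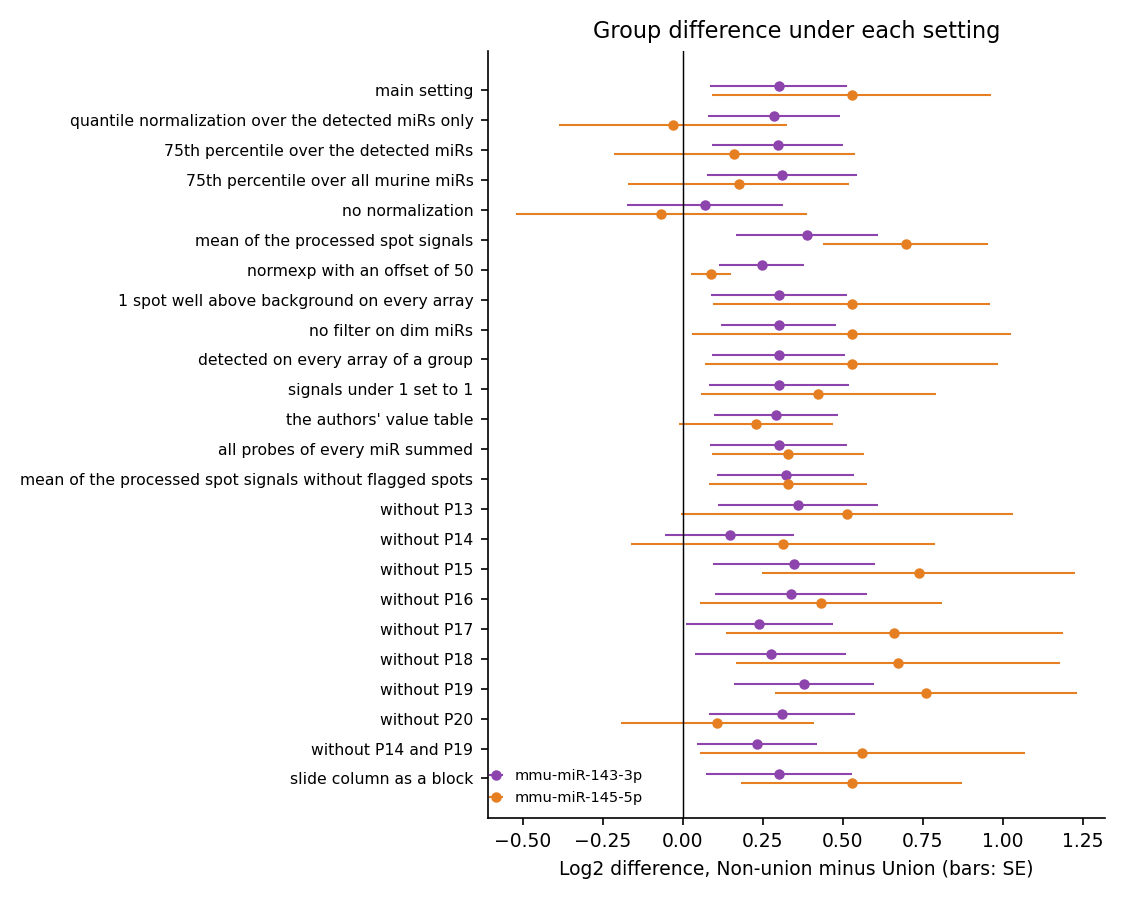
Log2 difference of Non-union minus Union with its SE for miR-143-3p (purple) and miR-145-5p (orange) in the main and in each alternative setting. MiR-143-3p lies to the right of 0 in every setting, and miR-145-5p lies at -0.03 and -0.07 in 2 of them and at 0.11 without P20.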

How the data were processed

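Callus RNA of 8 mice was measured on 8 arrays of 1 colour. The authors deposited the scanner software output (Agilent Feature Extraction 10.10.1.1 by the submitters' processing notes), with background-corrected intensity values per spot, per probe and merged per miR, and detection calls. The deposited value table holds log2 values and was used as an alternative. Groups and specimen numbers come from the labels, and surgery and age from the study's methods.

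The study's methods name log2 and quantile normalization but not the miRs used for it. Here log2 was taken of the merged signals, and all 1079 murine miRs entered the normalization. Tested were the 310 with a detection call of the software on every array, as Non-union minus Union with lmFit and eBayes of limma 3.58.1 in R 4.3.3, two-sided. P was adjusted over all tested miRs (Benjamini-Hochberg), and the FC is the antilog of the log2 difference. Single values and correlations were tested by two-sided exact permutation over all 70 arrangements or all pairings (Python 3.11.15, numpy 2.4.6, pandas 2.3.3, scipy 1.17.1), and matplotlib 3.10.9 drew the figures. The study tested a different number of miRs. The fit was tested on simulated data.

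The members, the lists and the tests were chosen with earlier results of these data known. Named are the cluster members, the list members and, for each main arm, the 5 miRs with the highest Pearson r over the arrays. The 8 lists were smooth muscle contractile, smooth muscle switch, stromal, endothelial, skeletal muscle, red blood cells, myeloid (myeloid cells and leukocytes) and cartilage. Each was described by counts, its median and the mean of its members detected on all arrays. MiR-486-5p of the red blood cell list was not matched to the array. The alternatives were other normalizations, averaged spot signals, normexp (offset 50), other filters, signals under 1 set to 1, the value table of the authors and leaving out each array. P14 and P19 were also left out together. Chosen after seeing the data were the slide column as a block, the sum of all probes and the averaged spots without flagged ones. Averaged signals at or below 0 were set to 0.1. Arrays give no depth, and their number limits the precision.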

Additional observations from a re-analysis of the deposited data

Results flagged for a closer look

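In groups of 4 arrays, a highest or lowest array was looked at again when its gap to the nearest other array took more of the range of the group than Dixon's test allows at the 95% level. This was the case in 6 of 26 groups of values. Chance alone gives about 1 in 20 for independent groups of normally distributed values. These groups were not independent, as the distance is made from both main arms. The smooth muscle contractile and skeletal muscle lists also share miRs, so that the count cannot be set against that rate.

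In the Non-union group, miR-143-3p stood apart on P14 at 8.41493 on the normalized log2 scale, against 7.76 to 7.83 on the other Non-union arrays. In the same group, the summed probe signals of the undetected miR-143-5p stood apart on P13 at 1.09174 units, below the lowest signal of any detected miR.

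In the Union group, miR-145-5p stood apart on P20 at 1.95758, against 3.52 to 3.82. For this reason the log2 distance between miR-143-3p and miR-145-5p also stood apart on P20, at 5.7408 against 3.94 to 4.06. The merged signal of miR-145-5p left out a probe on P20. With all probes of every miR summed, miR-145-5p lay at 3.15 on P20 and at 3.63 to 3.85 on the other Union arrays. On P20 the mean of the myeloid list also stood apart, at 11.997 against 10.01 to 10.16 on the other Union arrays. The mean of the stromal list stood apart on P19, at 10.1463. What these values of P14, P13, P19 and P20 come from was not tested.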

How the results depend on the processing

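MiR-143-3p kept its direction and had an adjusted limma p above the threshold in all 23 alternatives fitted with limma, and its difference was 0.15 to 0.38 when single arrays were left out. The other filters and the column block could not change a difference. Relative to the median of all tested miRs in the same setting, miR-143-3p was at -0.03 without P14 and miR-145-5p at -0.12 without P20. MiR-145-5p reversed to -0.030 when quantiles were normalized over detected miRs alone and to -0.067 without normalization, and lay between 0.11 and 0.76 when single arrays were left out. Over all tested miRs the median difference was 0.03 and -0.10 in these settings, against 0.15.

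The difference of -0.23 in the distance between both main arms reversed to 0.32 with quantiles normalized over detected miRs alone. It was 0.14 with the 75th percentile over the detected miRs, with the 75th percentile over all murine miRs and without normalization. A shift of all miRs of an array by the same amount cancels in this distance. These settings therefore had to give the same value and count as a single result. With normexp the difference was 0.16 and with the value table of the authors 0.063. It was -0.42 to 0.20 when single arrays were left out. With all probes of every miR summed it was -0.028. Averaged spots gave -0.31, and -0.0065 without flagged spots. The cause was not tested.

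The count of miRs with an unadjusted limma p under 0.05 was 43. It was 18 (without P17) to 115 (without P19) when single arrays were left out, 122 without P14 and P19 and 78 with the slide column as a block. P14 had the lowest Non-union and P19 the highest Union mean of the stromal and of the cartilage list. Leaving out this pair therefore widened the gap between the groups on these lists by choice. With signals under 1 set to 1, the difference of miR-145-5p was 0.42. Giving the undetected partner arms the lowest detected signal of each array was not run, because they were detected on no array. No specimen number occurs in both groups, and the slide column was the only block fitted. MiR-145-5p lay near background, and this limits what its signal can show.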
